A study of Arabidopsis thaliana with 9 samples.

Results

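The transcripts described here are those counted for the plastid and mitochondrial genomes of Arabidopsis thaliana leaves. They were chosen by their identifiers, which start with ATCG (plastid) or ATMG (mitochondrion), and selected on their counts, which summed to at least 10 over all 9 libraries. Their shares of the counts, in which the groups differ, were known when they were chosen. This gave 120 of the 38202 genes in the table, 89 of them plastid and 31 mitochondrial. RNA was sequenced from leaves of the ecotype Columbia, with no mutant allele named, in 3 libraries each of AgNPs (silver nanoparticles), Ag+ (silver ions) and CK, which was taken as the group without silver. Plants of every group grew for 6 days in MS medium, a plant culture medium, and the labels state no dose and no duration of the silver treatment. Pooled RNA is mentioned in the labels, and separate cultures behind the libraries of a group are not stated. A p-value here covers the variation among libraries alone, part of which can be technical. Total counts ranged from 16884010 to 19876151 per library. Libraries are numbered within their group, and values of the 3 libraries are given in the order of these numbers.

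Plastids and mitochondria descend from bacteria and keep small genomes that encode core subunits of photosynthesis and respiration and parts of their own ribosomes. In plants, plastid genes are read by a plastid-encoded RNA polymerase of bacterial type, which needs nuclear-encoded sigma factors, and by a nuclear-encoded phage-type polymerase. Mitochondrial genes are read by phage-type polymerases alone. Nuclear-encoded proteins that bind RNA then trim, edit and stabilise the transcripts, and most subunits of each complex come from the nucleus, so both genomes have to be expressed in balance.

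The counts behind these genes were small and unevenly spread. Of 134 plastid rows, 19 were at 0 and 26 had 1 to 9 counts, and of 162 mitochondrial rows, 88 were at 0 and 43 had 1 to 9. The members held 99.8% of the 55811 plastid counts and 99.7% of the 41585 mitochondrial counts. The median member had 161 summed counts in the plastid and 41 in the mitochondrion. Just inside the minimum lay ATCG00960 and ATMG00010 with 10 counts each, and just outside it ATCG00905 and ATMG00140 with 9 each. Enough counts for a test were found for 69 members, 61 plastid and 8 mitochondrial, and 51 were not tested by edgeR. The files do not pair the ATCG and ATMG identifiers with names. Notes in the RefSeq annotation mention 11 of the members, so the other 109 are given by identifier only, and transcript lengths were not used, so levels are not compared between rows.

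Organelle transcripts took the smallest share of the counts in the Ag+ leaves. Plastid members held 0.0492%, 0.0507% and 0.0281% of the counts in AgNPs, 0.0185%, 0.0182% and 0.0247% in Ag+, and 0.0508%, 0.0366% and 0.0283% in CK. All 3 Ag+ libraries lay below all 3 CK libraries and all 3 AgNPs libraries, while AgNPs and CK overlapped. The means were 0.0427% ± 0.0126 in AgNPs, 0.0205% ± 0.00367 in Ag+ and 0.0386% ± 0.0114 in CK (SD, n = 3 each). On the log2 scale the ratio of mean shares was -0.92 for Ag+ against CK, 0.14 for AgNPs against CK and 1.06 for AgNPs against Ag+. The 3 comparisons share their libraries and are not independent of each other. These shares are a description, since the genes were singled out with them known, and no test was made of them. Counting error was small beside this spread, since the 95% Wilson interval of a library's plastid or mitochondrial share reached at most 4.69% of the share to either side. In bulk tissue, fewer organelles or cells and less organelle RNA per cell cannot be told apart.

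Mitochondrial members showed the same order of groups over a wider range. Their share was 0.0445%, 0.04% and 0.0142% in AgNPs, 0.0103%, 0.0142% and 0.0128% in Ag+, and 0.0411%, 0.026% and 0.0231% in CK. The Ag+ libraries again lay below every CK library, and AgNPs 3 lay at the level of Ag+ 2, away from AgNPs 1 and AgNPs 2. The mean share was 0.0329% ± 0.0164 in AgNPs, 0.0124% ± 0.00198 in Ag+ and 0.0301% ± 0.00966 in CK (SD, n = 3 each). The log2 ratio of these means was -1.27 for Ag+ against CK, 0.13 for AgNPs against CK and 1.40 for AgNPs against Ag+. Without AgNPs 3 the ratio against CK was 0.49 for the mitochondrial and 0.37 for the plastid share.

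Within the organelle counts, the mitochondrial part was 47.5%, 44.1% and 33.6% in AgNPs, 35.9%, 43.8% and 34.1% in Ag+, and 44.7%, 41.6% and 44.9% in CK. It was below 36% in AgNPs 3, Ag+ 1 and Ag+ 3, and above 41% in the other 6 libraries. The SD of this part was 7.25 percentage points in AgNPs, 5.16 in Ag+ and 1.85 in CK, and the difference between these spreads was not tested.

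Another set of rows moved with the organelle shares. The part of ribosomal RNA within the organelle members themselves is not known here, since their identifiers carry no annotation. Rows in the nuclear ribosomal DNA region took 1.24%, 1.16% and 0.354% of the counts in AgNPs, 0.243%, 0.319% and 0.342% in Ag+, and 1.42%, 0.825% and 0.669% in CK. Ranked by each of the 3 shares, CK 1, AgNPs 1 and AgNPs 2 held the first 3 places, CK 2 the next and CK 3 the next after it. The highest library exceeded the lowest 2.79-fold in plastid share, 4.32-fold in mitochondrial share and 5.84-fold in ribosomal DNA share. All libraries were depleted of ribosomal RNA during preparation. The part of this shared order in the group differences was not tested.

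**Figure D1:**
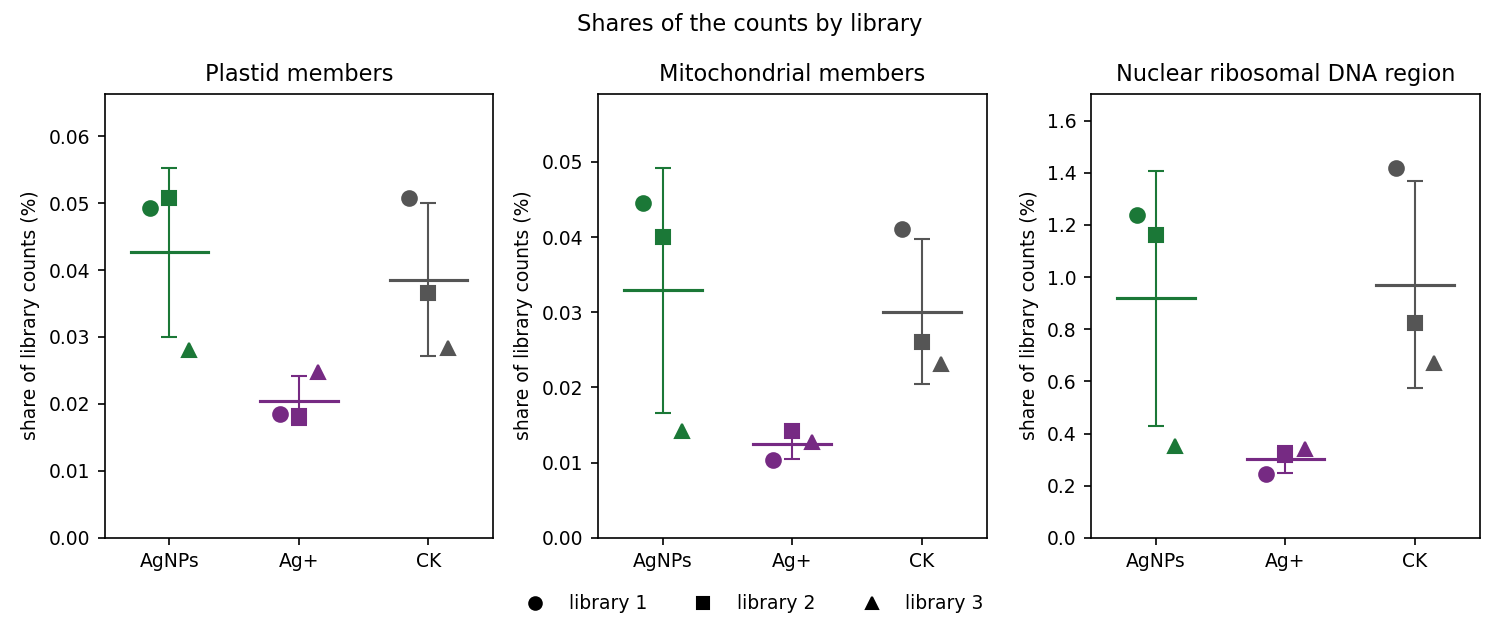
Share of each library's counts (%) held by the plastid members, the mitochondrial members and the nuclear ribosomal DNA region, with one symbol per library, the group mean as a line and the SD as a bar. The Ag+ libraries sit lowest, between 0.0182% and 0.0247% for the plastid, and AgNPs 3 stands below AgNPs 1 and AgNPs 2 in all 3 panels.

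A pair of rows carried nearly all mitochondrial counts. ATMG00020 held 63.0% and ATMG01390 33.6% of them, together 94.1% to 97.8% in every library. Whether these rows are ribosomal RNA is not known here. ATMG00020 had 5264, 5208 and 1351 counts in AgNPs, 765, 1324 and 1296 in Ag+, and 5428, 2965 and 2534 in CK. Its Ag+ values lay below all CK values, with a log2 fold change of -1.51 (SE 0.49) that did not pass in the fit of all 9 libraries (edgeR adjusted p = 0.126). It was called lower in DESeq2 (adjusted p = 0.00944), in edgeR with only the 6 libraries compared (0.0351) and in edgeR without AgNPs 3 (0.0257). ATMG01390 had 2259, 2383 and 1009 counts in AgNPs, 890, 1282 and 803 in Ag+, and 2501, 1466 and 1338 in CK, and its log2 fold change for Ag+ against CK was -0.65 (SE 0.35, edgeR adjusted p = 0.362). In CPM, counts per 1000000 with library sizes scaled by TMM, its mean was 103 ± 44.3 in AgNPs, 58.8 ± 12.1 in Ag+ and 92.0 ± 28.8 in CK (SD, n = 3 each).

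The 29 other mitochondrial members had 1398 counts in all, at most 156 for any of them. Together they had 170, 256 and 149 counts in AgNPs, 89, 129 and 85 in Ag+, and 231, 137 and 152 in CK. Per 1000000 counts this was 10.4 ± 2.34 in AgNPs, 5.64 ± 0.919 in Ag+ and 9.37 ± 1.98 in CK (SD, n = 3 each), and the Ag+ libraries lay below the other 6. The log2 ratio of the mean shares was then -0.73 for Ag+ against CK, a smaller size than the -1.27 for all mitochondrial members. Among the tested rows of this remainder, ATMG00090, ATMG00660, ATMG01360, ATMG00080 and ATMG01170 had log2 fold changes of -0.90 to -0.17 for Ag+ against CK, and ATMG00670 had 0.64 (SE 0.66). None of the 6 passed. Of the rows not tested by edgeR, ATMG00060 had 19, 12 and 7 counts in AgNPs, 1, 2 and 1 in Ag+, and 10, 3 and 6 in CK, with all 3 Ag+ libraries lowest. DESeq2, which did test it, called it higher with AgNPs against Ag+ (log2 fold change 3.17, adjusted p = 0.047), where the Ag+ libraries held 4 counts in all. ATMG00070, ATMG00690 and ATMG01370 had 55 to 60 counts each over all libraries.

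Plastid counts were spread over more rows, with 68.7% in the 12 highest. The row with most counts, ATCG01180, had 1006, 1111 and 341 counts in AgNPs, 276, 326 and 341 in Ag+, and 1268, 808 and 604 in CK. Its Ag+ libraries lay below all CK libraries and AgNPs 3 lay with them, and the log2 fold change of -1.32 (SE 0.42) for Ag+ against CK did not pass in edgeR's fit of all 9 libraries (adjusted p = 0.115). The row was called lower in DESeq2 (adjusted p = 0.0115), in edgeR with only the 6 libraries compared (0.0239, or 0.019 with the replicate number as a block) and in edgeR without AgNPs 3 (0.0179). Of the 12 rows, 9 had a log2 fold change below -0.5 in that comparison, a cut for which the share of all genes is not given here. In 7 of the 12 the Ag+ libraries lay wholly below CK, beside 10.7% of all genes. The 9 were ATCG01180, ATCG00020, ATCG00950, ATCG00340, ATCG00350, ATCG00120, ATCG00280, ATCG00490 and ATCG00680, at -1.42 to -0.75, and edgeR's fit of all 9 libraries called none of them. DESeq2 called ATCG00120, ATCG00950 and ATCG01180 lower in that comparison (adjusted p = 0.00586, 0.007 and 0.0115), and edgeR with only the 6 libraries called ATCG00950 (0.019) and ATCG01180. With the block in those 6 libraries it also called ATCG00120 (0.0334) and ATCG00280 (0.0391), and edgeR's fit of the 8 libraries without CK 3, with no block, called ATCG00020 (0.0433) and ATCG00490 (0.0453).

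The remaining 3 of the 12, ATCG00480, ATCG00190 and ATCG01210, stayed between -0.23 and 0.10 for Ag+ against CK. ATCG00480, second in counts, had 470, 662 and 579 counts in AgNPs, 419, 446 and 445 in Ag+, and 559, 439 and 398 in CK. Its log2 fold change was 0.10 (SE 0.13) for Ag+ against CK, and its AgNPs libraries lay above CK without overlap in CPM, at 30.8 ± 1.84 in AgNPs and 24.4 ± 3.73 in CK (SD, n = 3 each), with a log2 fold change of 0.34 that did not pass (adjusted p = 0.226). This row made up 7.95% ± 3.27 of the plastid counts in AgNPs, 12.2% ± 1.51 in Ag+ and 6.81% ± 1.26 in CK (SD, n = 3 each). The share of ATCG01210 was 3.44% ± 0.239 in AgNPs, 4.84% ± 0.491 in Ag+ and 3.28% ± 0.11 in CK. These shares of the plastid counts were not tested.

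ATCG00170, ATCG00180 and ATCG00190 did not follow the order of the plastid total. ATCG00190 had 264, 290 and 339 counts in AgNPs, 198, 74 and 295 in Ag+, and 163, 177 and 279 in CK. Here Ag+ 2 was the lowest library and Ag+ 3 among the highest, and AgNPs 3 was the highest of its group. ATCG00170 had 120, 141 and 134 counts in AgNPs, 75, 17 and 79 in Ag+, and 71, 35 and 119 in CK. ATCG00180 had 95, 122 and 136 counts in AgNPs, 38, 18 and 90 in Ag+, and 86, 69 and 95 in CK. In all 3 rows Ag+ 2 was the lowest library and CK 3 the highest CK library in CPM, whereas CK 3 was the lowest CK library in the plastid total.

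**Figure D2:**
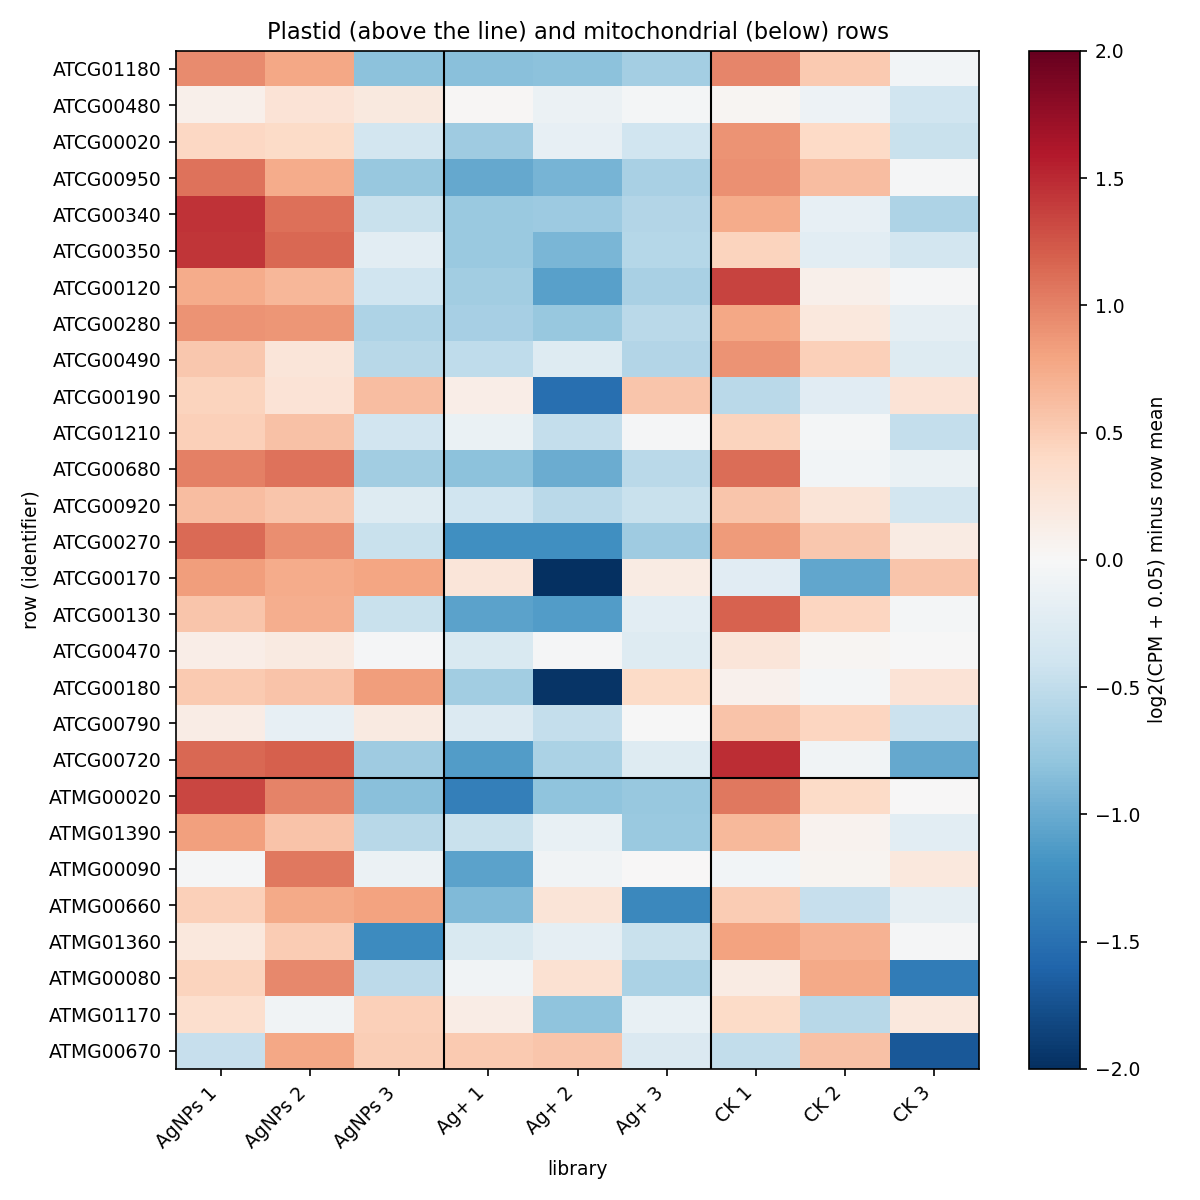
Level of the 20 plastid and 8 mitochondrial rows with the highest counts in each library, as log2(CPM + 0.05) minus the mean of the row, with colours saturated at the ends of the scale. Most rows are red in AgNPs 1, AgNPs 2 and CK 1 and blue in the Ag+ libraries, while ATCG00480 is nearly even and ATCG00170, ATCG00180 and ATCG00190 are lowest in Ag+ 2.

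With Ag+ against CK, 2 of the 69 tested members fell and 0 rose, beside 2.05% of all 19889 tested genes called lower and 3.52% called higher (edgeR's quasi-likelihood test, Benjamini-Hochberg adjusted p under 0.05 over all tested genes). At an unadjusted p under 0.05, 18 members were lower, beside 8.4% of all genes, and 0 were higher, beside 10.8%. DESeq2 called 7 members lower and 0 higher, beside 3.46% and 5.05% of the genes it tested, and limma voom called 0, beside 1.76% lower and 3.34% higher. With only the 6 libraries compared, 5 members were called lower, beside 1.64% of all genes, and 6 with the replicate number as a block in that fit, beside 3.58%. With the block in the fit of all 9 libraries it was 1 lower and 0 higher, beside 2.34% and 3.89% of all genes. The count was 0 without CK 1, CK 2 or any Ag+ library, 1 without AgNPs 2, and 5 without CK 3 or AgNPs 3. For these fits with a library left out, the shares of all genes called are not given here. A value below 0 was found for the log2 fold change in 63 of 69 members, beside 51.3% of all genes, with a median of -0.75 against -0.01 for all genes. The median was -0.78 over the 61 plastid rows and -0.46 over the 8 mitochondrial rows. In 19 members the Ag+ libraries lay wholly below CK, beside 10.7% of all genes. The median standard error was 0.49 for these members and 0.20 for all genes, so the fold changes of single members were less certain than those of most genes.

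The member with the lowest p was ATCG00670, which RefSeq notes call plastid-encoded CLP P, the catalytic subunit that the plastid genome contributes to the Clp protease of the stroma. It had 32, 60 and 37 counts in AgNPs, 13, 19 and 17 in Ag+, and 73, 81 and 35 in CK. Its Ag+ libraries lay below all others. Its mean was 2.30 ± 0.567 CPM in AgNPs, 0.967 ± 0.107 in Ag+ and 3.34 ± 1.43 in CK (SD, n = 3 each), and it fell with Ag+ by 1.78 on the log2 scale (SE 0.38, adjusted p = 0.0262). The log2 fold change was -0.53 for AgNPs against CK (adjusted p = 0.51) and 1.24 for AgNPs against Ag+ (adjusted p = 0.178). CLP2 (AT1G12410), a nuclear-encoded Clp protein that RefSeq notes match to this row, had a log2 fold change of -0.05 for Ag+ against CK (adjusted p = 0.881). The call of ATCG00670 was lost without CK 1, CK 2 or any of the Ag+ libraries, at adjusted p of up to 0.0972, and in limma voom (adjusted p = 0.0792).

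The other member called was ATCG00270, which is named in none of the sources used. It had 251, 273 and 96 counts in AgNPs, 45, 53 and 72 in Ag+, and 253, 179 and 152 in CK. Its Ag+ libraries lay below all others, and AgNPs 3 was nearest to them. Its mean was 11.3 ± 5.47 CPM in AgNPs, 3.37 ± 0.739 in Ag+ and 10.2 ± 2.39 in CK (SD, n = 3 each). With Ag+ it fell by 1.59 on the log2 scale (SE 0.39, adjusted p = 0.0463), and with the replicate number as a block the adjusted p was 0.0553. The log2 fold change was 0.15 for AgNPs against CK and 1.75 for AgNPs against Ag+ (edgeR adjusted p = 0.0858, DESeq2 0.000609), the lowest adjusted p of any member there in edgeR. The call of ATCG00270 was lost when CK 1, CK 2, AgNPs 2 or any Ag+ library was left out, at adjusted p of up to 0.165, and in limma voom (adjusted p = 0.0955).

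**Figure D3:**
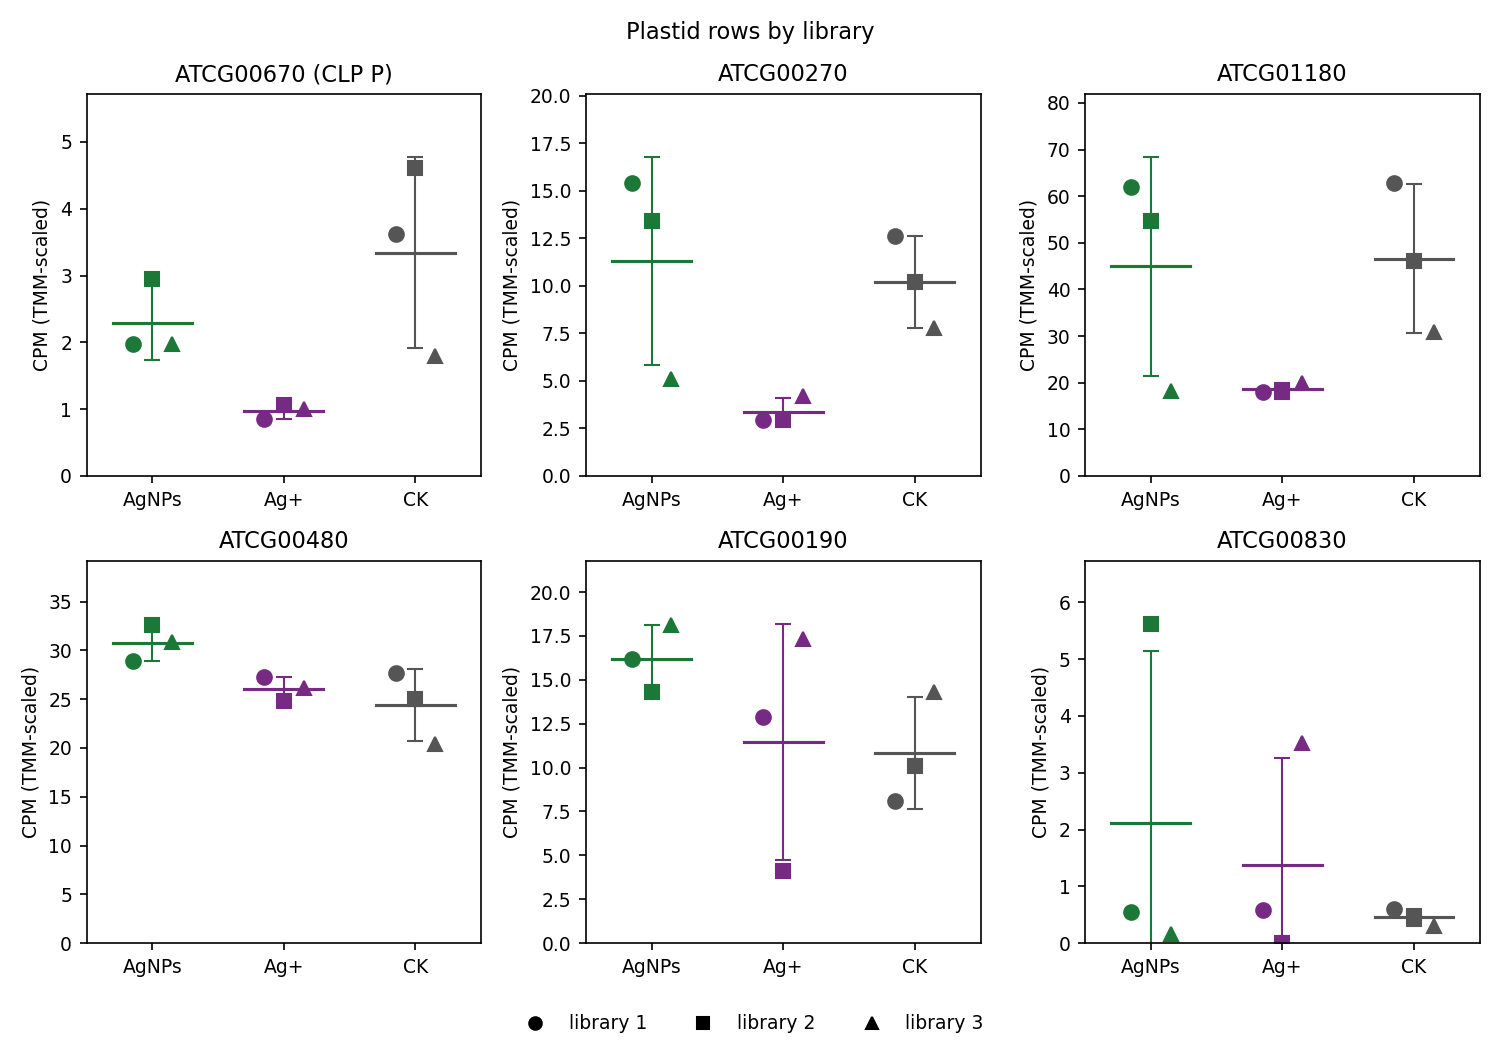
CPM (scaled by TMM) of 6 plastid rows in each library, with one symbol per library, the group mean as a line and the SD as a bar that is not drawn below 0. ATCG00670, ATCG00270 and ATCG01180 are lowest in Ag+, ATCG00480 is nearly level, Ag+ 2 is the lowest library for ATCG00190, and single libraries stand far above the rest of their group for ATCG00830.

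Other plastid members with a RefSeq note did not pass in any comparison. ATCG00430 is called photosystem II reaction center protein G in the note of a nuclear gene, a name that was not checked here. It had 83 counts in AgNPs, 83 in Ag+ and 85 in CK, with a log2 fold change of 0.16 (SE 0.51) for Ag+ against CK. ATCG00750, ribosomal protein S11 of the plastid ribosome's small subunit, had 55 counts in AgNPs, 48 in Ag+ and 58 in CK, with -0.07 (SE 0.35). ATCG00660, ribosomal protein L20 of the large subunit, had 42, 37 and 60 counts in AgNPs, Ag+ and CK, with -0.47 (SE 0.72). ATCG00530, noted as a CemA-like protein of the envelope, had 107, 36 and 76 counts in AgNPs, Ag+ and CK, with -0.91 (SE 0.89). ATCG00420 is named only in the note of a nuclear pseudogene, AT4G13285. That pseudogene matched the plastid genome at ndhJ (88.2% identity over 89.9% of its length), and whether the row is ndhJ was not checked. ATCG00420 had 85, 42 and 99 counts in AgNPs, Ag+ and CK. Its Ag+ libraries lay wholly below CK in CPM. The log2 fold change was -1.06 (SE 0.39), with an edgeR unadjusted p of 0.0222 and an adjusted p of 0.168. Among rows counted too low to be tested, ATMG01090, noted as subunit 9 of the mitochondrial ATP synthase, had 10 counts in AgNPs, 6 in Ag+ and 8 in CK.

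AgNPs against CK gave no called member in edgeR's fit of all 9 libraries, where 1.09% of all genes were called lower and 2.23% higher. At an unadjusted p under 0.05, 5 members were higher and 1 lower, beside 9.59% and 7.38% of all genes. DESeq2 called 0, beside 4.28% of its genes higher and 2.21% lower, and limma voom called 0, beside 2.1% higher and 1.11% lower. EdgeR called ATCG00400 lower without CK 3 (adjusted p = 0.042) and ATCG00350 higher without AgNPs 3 (0.04). The log2 fold change was above 0 in 44 members and below 0 in 25, beside 50.4% of all genes below 0, with a median of 0.16 against 0.00 for all genes. The AgNPs libraries lay wholly above CK in 7 members, beside 11.4% of all genes, and wholly below in 1, ATCG00030, beside 11.1%. ATCG00030 had 2, 3 and 2 counts in AgNPs, 2, 5 and 10 in Ag+, and 17, 16 and 4 in CK, and its adjusted p of 0.148 was the lowest. The highest fold change belonged to ATCG00830, whose 9, 114 and 3 counts in AgNPs, 9, 0 and 60 in Ag+, and 12, 8 and 6 in CK show that AgNPs 2 and Ag+ 3 alone were high.

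In the direct comparison of AgNPs against Ag+, edgeR called no member, where 0.508% of all genes were called higher and 0.176% lower. Unadjusted p was under 0.05 for 26 members, all higher, beside 7.92% of all genes higher and 6.9% lower. Limma voom called 0 members, beside 0.176% of all genes higher and 0.0754% lower. DESeq2 called 14 members higher and 0 lower, beside 2.99% and 1.03% of the genes it tested. The log2 fold change was above 0 in 65 of 69 members, while 51.8% of all genes were below 0, with a median of 0.90 against -0.01 for all genes, 1.10 over the plastid and 0.64 over the mitochondrial rows. In 28 members the AgNPs libraries lay wholly above Ag+, beside 10.4% of all genes. ATCG00340 had 740, 725 and 229 counts in AgNPs, 152, 180 and 189 in Ag+, and 558, 260 and 212 in CK, and 1.59 as the log2 fold change (SE 0.47, adjusted p = 0.176 in edgeR and 0.01 in DESeq2). ATCG00350 had 708, 728 and 262 counts in AgNPs, 147, 153 and 184 in Ag+, and 446, 246 and 244 in CK, with 1.69 (SE 0.39, adjusted p = 0.0951 in edgeR and 0.000502 in DESeq2). In both rows AgNPs 1 and AgNPs 2 exceeded every CK library and AgNPs 3 did not.

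**Figure D4:**
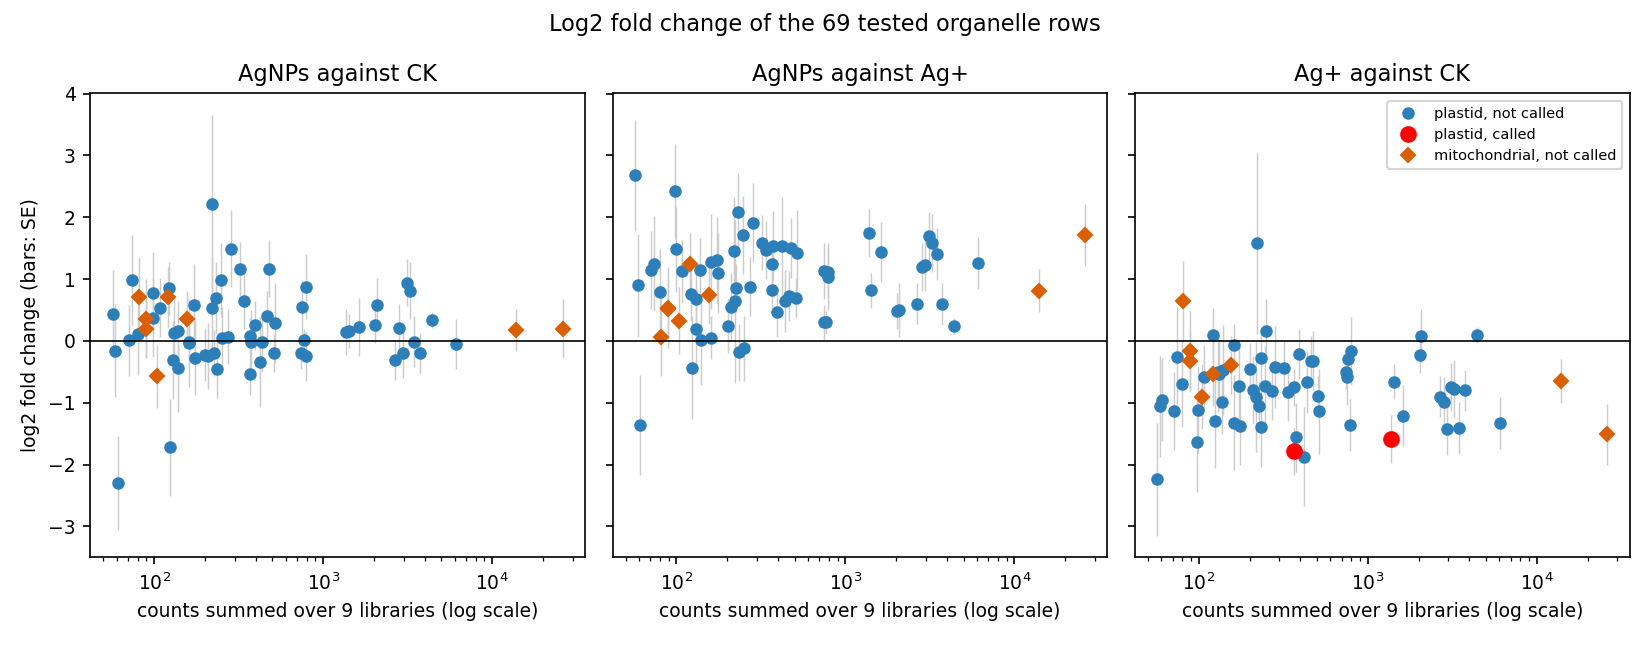
Log2 fold change with its standard error for the 69 members tested by edgeR in the 3 comparisons, against the counts summed over all libraries on a log scale. Points lie on both sides of 0 for AgNPs against CK, mostly above it for AgNPs against Ag+ and mostly below it for Ag+ against CK, where ATCG00670 and ATCG00270 passed.

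The 51 members not tested by edgeR had 286, 295 and 161 counts in AgNPs, 93, 135 and 146 in Ag+, and 351, 211 and 168 in CK. Per 1000000 counts this was 16.5, 15 and 9.11 in AgNPs, 5.51, 7 and 8.54 in Ag+, and 17.7, 12 and 9.63 in CK. The Ag+ libraries were lowest here too, with AgNPs 3 and CK 3 just above them. Of these rows, 2, 3 and 9 were at 0 in AgNPs, 20, 10 and 11 in Ag+, and 1, 5 and 9 in CK.

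Nuclear genes that serve the organelle genomes were described from 5 lists of 97 entries, 96 of them tested. Among 32 nuclear-encoded subunits of plastid complexes, 10 rose and 0 fell with Ag+ against CK, beside 3.52% of all tested genes called higher and 2.05% called lower. The median log2 fold change of the 32 was 0.65, against -0.01 for all genes. All 10 called were subunits of the photosystems. Subunits of Rubisco, the plastid ATP synthase, the cytochrome complex and the NADH dehydrogenase-like complex were not called, at -0.19 (RBCS1B) to 0.65 (NDHM). PSBQ2, an extrinsic subunit of photosystem II's oxygen-evolving complex, had 2206, 1910 and 1744 CPM in AgNPs, 2601, 2978 and 2237 in Ag+, and 1421, 1345 and 981 in CK, and rose by 1.06 with Ag+ (SE 0.18, adjusted p = 0.0101), a call kept with each library left out (adjusted p of up to 0.0467). The photosystem I subunits PSAO, PSAD1 and PSAH2 rose by 0.99, 0.96 and 1.14 with Ag+ (SE 0.20, 0.20 and 0.24, adjusted p = 0.0202, 0.0214 and 0.0244). Within the same list, the median was 0.29 for AgNPs against CK and -0.35 for AgNPs against Ag+, with 1 gene called lower with AgNPs against CK, beside 1.09% of all genes. That gene was NDHN, a subunit of the chloroplast NADH dehydrogenase-like complex, with 50.1 ± 5.03 CPM in AgNPs, 78.4 ± 13.3 in Ag+ and 77.6 ± 2.18 in CK (SD, n = 3 each) and a log2 fold change of -0.63 against CK (adjusted p = 0.0379). Leaving out CK 2, Ag+ 1 or Ag+ 2 ended the calls of PSAO, PSAD1 and PSAH2, with adjusted p of up to 0.0938. The NDHN call was lost without CK 1, CK 2, CK 3, Ag+ 2, AgNPs 2 or AgNPs 3, with adjusted p of up to 0.151.

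Few transcription factors of the organelles passed the test. Of 9 sigma factors and phage-type polymerases, 1 rose with Ag+, beside 3.52% of all genes, and the median was -0.01. With AgNPs against CK 0 were called, the median was -0.24 and 4 were lower at an unadjusted p under 0.05, beside 7.38% of all genes. The one that rose was SIG1, a sigma factor of the plastid-encoded polymerase, with 17.1 ± 1.69 CPM in AgNPs, 25.5 ± 5.32 in Ag+ and 12.9 ± 2.55 in CK (SD, n = 3 each) and a log2 fold change of 0.98 against CK (adjusted p = 0.0195, up to 0.0756 without CK 2, Ag+ 1 or Ag+ 2, where the call was lost). Of 13 proteins bound to the plastid-encoded polymerase, 0 were called with Ag+ against CK, where the median was -0.13 and 2 were lower at an unadjusted p under 0.05, beside 8.4% of all genes. With AgNPs against CK 2 fell, beside 1.09% of all genes, the median was -0.36 and 9 were lower at an unadjusted p under 0.05, beside 7.38%. The 2 that fell were PTAC6, which is needed for the activity of that polymerase, by 0.53 (adjusted p = 0.0421), and the iron superoxide dismutase FSD3, by 0.58 (adjusted p = 0.0267). The PTAC6 call was kept without CK 3 and lost when any of the other 8 libraries was left out (adjusted p of up to 0.174), and the FSD3 call was lost without CK 2, CK 3, AgNPs 2 or AgNPs 3 (up to 0.115).

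Of 23 tested genes for organelle RNA stability, turnover and editing, HCF107 was the only one called with Ag+ against CK. Of all genes, 3.52% were called higher and 2.05% lower there. HCF107, which protects the ends of certain plastid transcripts, had 68.1, 55 and 58.2 CPM in AgNPs, 76.2, 77.1 and 59.3 in Ag+, and 39.2, 26.4 and 34.2 in CK, with all silver libraries above CK. It rose by 1.09 with Ag+ (SE 0.17, adjusted p = 0.0072), which held with each library left out, and by 0.86 with AgNPs against CK (adjusted p = 0.0265). The AgNPs call was lost without CK 2 or any AgNPs library (adjusted p of up to 0.0868). RNR1, an exoribonuclease that trims organelle RNA, fell by 0.54 with AgNPs against CK (adjusted p = 0.03), a call lost without CK 1, CK 2, Ag+ 2 or any AgNPs library (adjusted p of up to 0.127). Of 19 nuclear-encoded subunits of mitochondrial complexes, 0 were called in any comparison at an adjusted p under 0.05, with 1 higher at an unadjusted p under 0.05 with Ag+ against CK, 0 with AgNPs against CK and 1 lower with AgNPs against Ag+. Their medians were 0.14, -0.03 and -0.14 in these comparisons. With AgNPs against Ag+, edgeR called 0 genes of the 5 lists and DESeq2 called 5, all lower, beside 1.03% of the genes DESeq2 tested, and 1 to 8 genes per list were lower at an unadjusted p under 0.05, beside 6.9% of all genes. Over the 5 lists, 12 of 96 genes were called with Ag+ against CK, all higher, beside 3.52% of all genes. With the replicate number as a block 20 were called, all higher, beside 3.89% of all genes called higher. The count was 2 without CK 2, Ag+ 1 or Ag+ 2, 7 without Ag+ 3 or AgNPs 2, and 19 without AgNPs 1. For these fits with a library left out, the shares of all genes called are not given here.

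**Figure D5:**
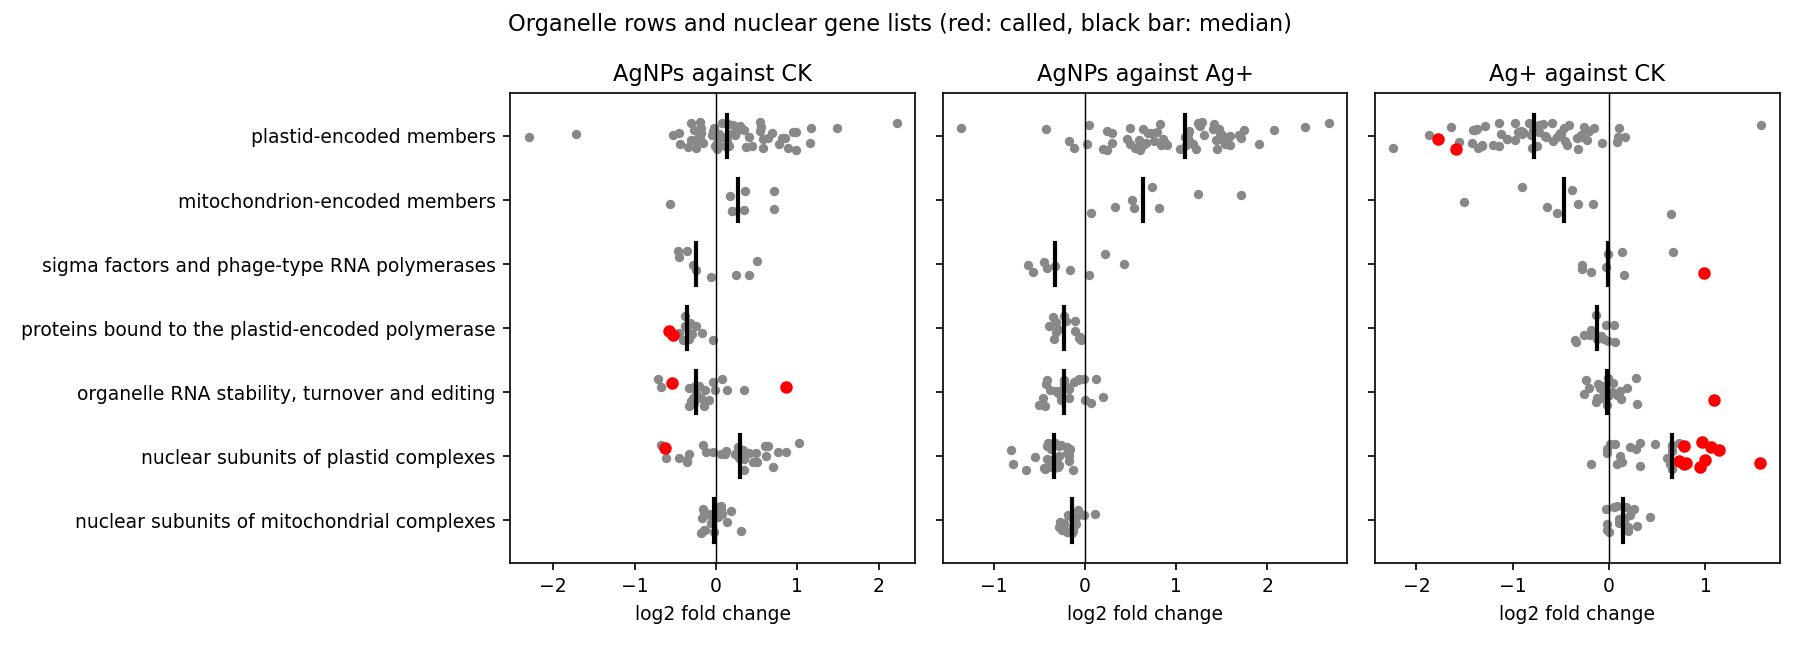
Log2 fold change of the tested plastid and mitochondrial members and of 5 nuclear gene lists in the 3 comparisons, with genes called at an adjusted p under 0.05 in red and the median of each row as a black bar. For Ag+ against CK the median is -0.78 for the plastid members and 0.65 for the nuclear subunits of plastid complexes, of which only photosystem subunits were called.

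Markers of other organs moved in part with the groups, and their part in these results was not tested. Root markers, of which 7 of 10 were tested and 0 called, summed to 2272 to 3313 CPM in AgNPs, 2150 to 2775 in Ag+ and 1882 to 2039 in CK. Nearly all of this sum was PYK10, a beta-glucosidase of root ER bodies, at 2248 to 3197 CPM in AgNPs, 2124 to 2748 in Ag+ and 1843 to 2017 in CK. Of the 7, 2 were higher with AgNPs against CK at an unadjusted p under 0.05, beside 9.59% of all genes. AgNPs 1 stood apart, with CASP1 at 15.7 CPM against 1.69 to 5.78 in the other 8 libraries, NRT2.1 at 39.7 against 2.4 to 8.37 and PHT1;1 at 45.3 against 9.26 to 27.5. Seed storage markers summed to 4.08 to 8.55 CPM in AgNPs, 2.4 to 31.2 in Ag+ and 0.198 to 0.563 in CK. Of 2 tested, 2 were called higher with Ag+ and 1 with AgNPs against CK, beside 3.52% and 2.23% of all genes. Leaf markers summed to 21925 to 28832 CPM in AgNPs, 29888 to 34603 in Ag+ and 18459 to 27243 in CK, so they were present in every library. Of 5 leaf markers, 2 were called higher with Ag+ against CK, beside 3.52% of all genes. These were LHCB1.2, 3.38-fold, and LHCB6, 2.82-fold (edgeR adjusted p = 0.0104 each). Both were also called higher with AgNPs against CK, beside 2.23% of all genes, 2.67-fold and 2.22-fold (adjusted p = 0.0322 and 0.0392). The leaf markers GLK2, RBCS1A and CA1 were not called in either comparison. Their log2 fold changes were 0.27, 0.22 and 0.10 with Ag+ against CK. With AgNPs against CK they were 0.44, -0.12 and -0.58, with an unadjusted p of 0.0474 for CA1 in edgeR.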

How the data were processed

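The deposited values were raw counts of reads for each gene, in 1 column per library. Per the labels' protocols, TRIzol RNA was depleted of ribosomal RNA and read from both ends at 150 bp in a single lane, which leaves no batch to compare. HISAT2 and TAIR10 are named in the submitters' processing notes. Not given in the sources used here are the counter, its strand setting and the annotation, so antisense or overlapping genes, and near-identical organelle and nuclear copies, cannot be told apart by their reads.

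Counts of all 9 libraries entered 1 edgeR 4.0.16 fit in R 4.3.3 (quasi-likelihood test, robust dispersions, filterByExpr, TMM factors, group as the only term). For each comparison the two-sided p-values were adjusted over 19889 genes (Benjamini-Hochberg). Standard errors (SE) are log2 fold changes over the root of their F statistic. The biological coefficient of variation was 22.5%. On simulated counts of 19818 genes for Ag+ against CK, 99.0% of genes changed 4-fold and 40.8% of those changed 2-fold were recovered. Every simulated gene had the same dispersion, and most of the changed genes were nuclear. The members had a larger median standard error than all genes (0.49 against 0.20), so this recovery does not hold for them. DESeq2 1.42.0, limma voom (limma 3.58.1), other scalings, no filter, a replicate block, fewer libraries and each library left out were alternatives. Nuclear genes whose RefSeq notes name an organelle row were compared with the organelle genomes by blastn 2.17.0. This used the RefSeq assembly TAIR10.1, whose gene notes also supplied the names.

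Shares are counts of the members divided by all counts of a library. The ribosomal DNA region consists of 19 rows lying at most 10 kb from a nuclear ribosomal RNA gene in RefSeq. Intervals cover counting error only, since reads copied by PCR are not independent molecules.

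The members, gene lists and tests were chosen with earlier results of these data known. Members named are those called, the 12 plastid and 12 mitochondrial rows with the highest counts, and others singled out after their values were seen (ATCG00030, ATCG00170, ATCG00180, ATCG00830 and those with RefSeq notes). Listed genes are named where called, or by the 4 lowest p where more than 6 were called. Organelle ribosomal RNA rows were to be named as well, but the identifiers carry no annotation here.

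Deviations of same-numbered Ag+ and CK libraries from their group means had correlations of 0.12, 0.19 and 0.23 across genes. Their numbers were taken as pairs on these values alone, the labels giving no shared batch. Correlations of libraries with different numbers are not given here, so these values do not show that the numbers mark pairs.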

Additional observations from a re-analysis of the deposited data

How the results depend on the processing

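With Ag+ against CK, where 2 members were called, RLE or upper-quartile scaling, no filter and nuclear library sizes also gave 2. DESeq2 called 7, limma voom 0, the replicate block 1, only the 6 libraries compared 5, and that fit with the replicate block 6. Without CK 3 and AgNPs 1, left out together after the data were seen, 9 were called. With this pair or single libraries left out, the shares of all genes called are not given here, so those counts cannot be weighed against them. The count was 0 to 5 with single libraries left out, 0 without CK 1, CK 2 or any Ag+ library, 1 without AgNPs 2 and 5 without CK 3 or AgNPs 3. With AgNPs against CK it was 1 without CK 3 and AgNPs 1, and 0 to 1 with single libraries left out (1 without CK 3 or AgNPs 3). With AgNPs against Ag+ it was 14 in DESeq2, 2 without CK 3 and AgNPs 1, and 0 to 0 with single libraries left out. The log2 ratio of plastid shares ranged over -1.1 to -0.67 (Ag+ against CK), -0.03 to 0.39 (AgNPs against CK) and 0.92 to 1.29 (AgNPs against Ag+) with single libraries left out, and that of mitochondrial shares over -1.43 to -0.98, -0.15 to 0.49 and 1.12 to 1.76. Without the pair of rows with most counts, also chosen after the data were seen, the mitochondrial ratio for Ag+ against CK was -0.73. Called genes of the nuclear lists numbered 12 with Ag+ against CK, and 23 in DESeq2, 20 with the replicate block, 21 with the block and only 6 libraries, 25 without CK 3 and AgNPs 1 and 2 to 19 with single libraries left out. All of these were higher, apart from 2 lower among the 25. Of all genes, 5.05% were called higher in DESeq2 and 3.89% with the replicate block. With the block and only 6 libraries, or with libraries left out, this share is not given here. With AgNPs against CK the called list genes numbered 5, and 18, 8, 0, 12 and 0 to 4 in the same order of fits, and 2 with only the 6 libraries (0 without CK 2, AgNPs 2 or AgNPs 3, 2 without CK 1 or Ag+ 2, 3 without AgNPs 1). Their directions were mixed, with 4 lower and 1 higher among the 5, and 11 lower and 7 higher in DESeq2. It was 3 lower and 5 higher with the replicate block, and 10 lower and 2 higher without CK 3 and AgNPs 1. With AgNPs against Ag+ the called list genes numbered 0, and 5 in DESeq2, 15 without CK 3 and AgNPs 1, 1 with upper-quartile scaling, no filter or only the 6 libraries, and 0 to 3 with single libraries left out (1 without CK 1, 2 without CK 3, 3 without AgNPs 1). The cause of these differences was not tested. For same-numbered AgNPs libraries the correlations were -0.08, -0.11 and -0.02 with CK and -0.09, -0.21 and 0.12 with Ag+, so the block is no guide there. For Ag+ and CK the pairing is not established either. Shares without organelle ribosomal RNA rows were not run, since the identifiers carry no annotation here. Depth limits the 51 members not tested by edgeR and the mitochondrial rows under 200 counts.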

Other observations

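Part of the mitochondrial genome has a near-identical nuclear copy, and reads of such a stretch and its copy cannot be told apart. In the RefSeq assembly TAIR10.1, 54 nuclear genes of chromosome 2 matched the mitochondrial genome at 99% identity or more over at least 80% of their length. Of these genes, 33 matched at 100%. Their notes name 52 of the 162 mitochondrial rows. The match was to a stretch of the genome, and whether that stretch holds the row named was not checked. For AT2G07718, whose note names ATMG00590, the stretch lay at nad4. Only nuclear genes whose RefSeq note names an organelle row were compared, so the other 110 mitochondrial rows may have copies too. Of the 52 rows named in these notes, 33 were at 0 in all libraries and 3 (5.77%) reached 10 counts. Of the 110 rows not named in them, 28 (25.5%) reached 10 counts. The 52 mitochondrial rows held 139 counts and the 54 nuclear copies 403. AT2G07698, a nuclear copy whose RefSeq note names ATMG01190 (ATP synthase subunit 1), had 93 counts where ATMG01190 had 4. AT2G07727, whose RefSeq note names ATMG00220 (apocytochrome b), had 37 counts where ATMG00220 had 0. AT2G07715 had 142 counts where ATMG00560, named in its note, had 17. The nuclear copies together had 41, 66 and 32 counts in AgNPs, 32, 37 and 35 in Ag+, and 63, 56 and 41 in CK. The mitochondrial rows beside them had 16, 23 and 12 counts in AgNPs, 12, 8 and 9 in Ag+, and 21, 17 and 21 in CK. How the authors' counting divided such reads was not tested, and the mitochondrial levels given above are those of the mitochondrial rows alone.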
